A study of Mus musculus with 6 samples.

Results

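The transcripts of the collagen chains were compared between mouse embryo fibroblasts (MEFs) with and without Rnf40, a subunit of the RNF20/RNF40 ligase that places a single ubiquitin on histone H2B. The members were all rows of the deposited gene table whose symbol consists of Col, a number, a and a number, a rule that uses no measured value. This rule found 42 of the 29955 rows, and 37 of the 42 had enough reads to be tested. RNA-seq was done on 3 libraries of Rnf40+/+ MEFs and 3 libraries of Rnf40-/- MEFs, all primary cells at passage 3. The Rnf40-/- cells received 250 nM 4-hydroxytamoxifen (4-OHT) for 5 days followed by 3 days without it, which activates a ubiquitously expressed Rosa26-CreERT2 recombinase that removes loxP-flanked exons of Rnf40. The study made its MEFs from embryos that carried this Cre and were homozygous for loxP-flanked Rnf40. Whether the Rnf40+/+ cells were the same cells and received 4-OHT is not given in the labels. Deletion and drug thus cannot be told apart here. The labels also do not say whether the libraries of a group came from separate embryos or cultures, and p-values then measure only the spread between these libraries, which may be technical.

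Collagens are the main structural proteins of the extracellular matrix, and fibroblasts are their chief source in connective tissue. Each collagen is a trimer of alpha chains, made from 1 gene or from several, whose helical part has glycine as the first residue of every triplet. Fibrillar collagens build the cross-striated fibrils, and basement membrane collagens (type IV) form sheets. FACIT collagens have interrupted helices and sit on fibril surfaces, and beaded collagens (type VI) form microfilaments around cells.

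Libraries held 17053436 to 26344170 reads on genes. Rnf40, the deleted gene, gave normalized counts of 1278, 1195 and 1096 for Rnf40+/+ against 439, 519 and 487 for Rnf40-/- MEFs, and fell by 1.30 on the log2 scale (SE 0.09, limma adjusted p = 4.25e-07). A normalized count is the reads on a gene divided by the size factor of its library, and the log2 fold change is that of the normalized count + 1 in Rnf40-/- over Rnf40+/+ MEFs. A chain is said to rise or fall where the adjusted p of limma over 16378 genes was under 0.05. MEFs expressed the fibroblast markers, of which 0 of 10 rose and 8 fell (of all genes tested, 23.3% rose and 24.1% fell), with summed levels of 482942 to 510946 normalized counts in Rnf40+/+ and 326478 to 329843 in Rnf40-/- libraries. Among them Thy1 fell by 1.87 and Pdgfra fell by 1.09 on the log2 scale. The part of this difference in the collagen values was not tested.

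Collagen transcripts as a whole took a smaller share of the reads in every Rnf40-/- library. The share was 2.21%, 2.21% and 2.55% of the reads on genes in Rnf40+/+ libraries (2.32% ± 0.195, SD, n = 3) and 1.43%, 1.46% and 1.41% in Rnf40-/- libraries (1.43% ± 0.0259, SD, n = 3). The groups did not overlap, and the exact two-sided permutation test gave p = 0.1, the smallest value that 3 against 3 libraries allow. In these bulk samples fewer cells of a type and less RNA per cell cannot be told apart. Without Col1a1, the chain with the most reads over the 6 libraries, the remaining chains took 1.83% ± 0.0929 of the reads in Rnf40+/+ and 1.13% ± 0.0363 in Rnf40-/- libraries (SD, n = 3). Without Col1a2, the most abundant chain in Rnf40+/+ MEFs, they took 1.77% ± 0.147 and 1.31% ± 0.0265, and the difference shrank from -0.888 to -0.457 percentage points (SD, n = 3, exact permutation p = 0.1). Single chains moved in both directions: 19 of the 37 tested fell, 7 rose and 11 did not pass the test. Across all genes tested, 47.4% passed, 24.1% lower and 23.3% higher, so that falls made up a larger part of the chains than of all genes and rises a slightly smaller one. The median log2 fold change of the chains was -0.32, against -0.0035 over all genes tested. With the further limits of the study (a mean above 15 normalized counts and a change beyond 1 on the log2 scale), 8 chains were lower and 5 higher, beside 5.51% and 4.16% of all genes tested.

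**Figure D1:**
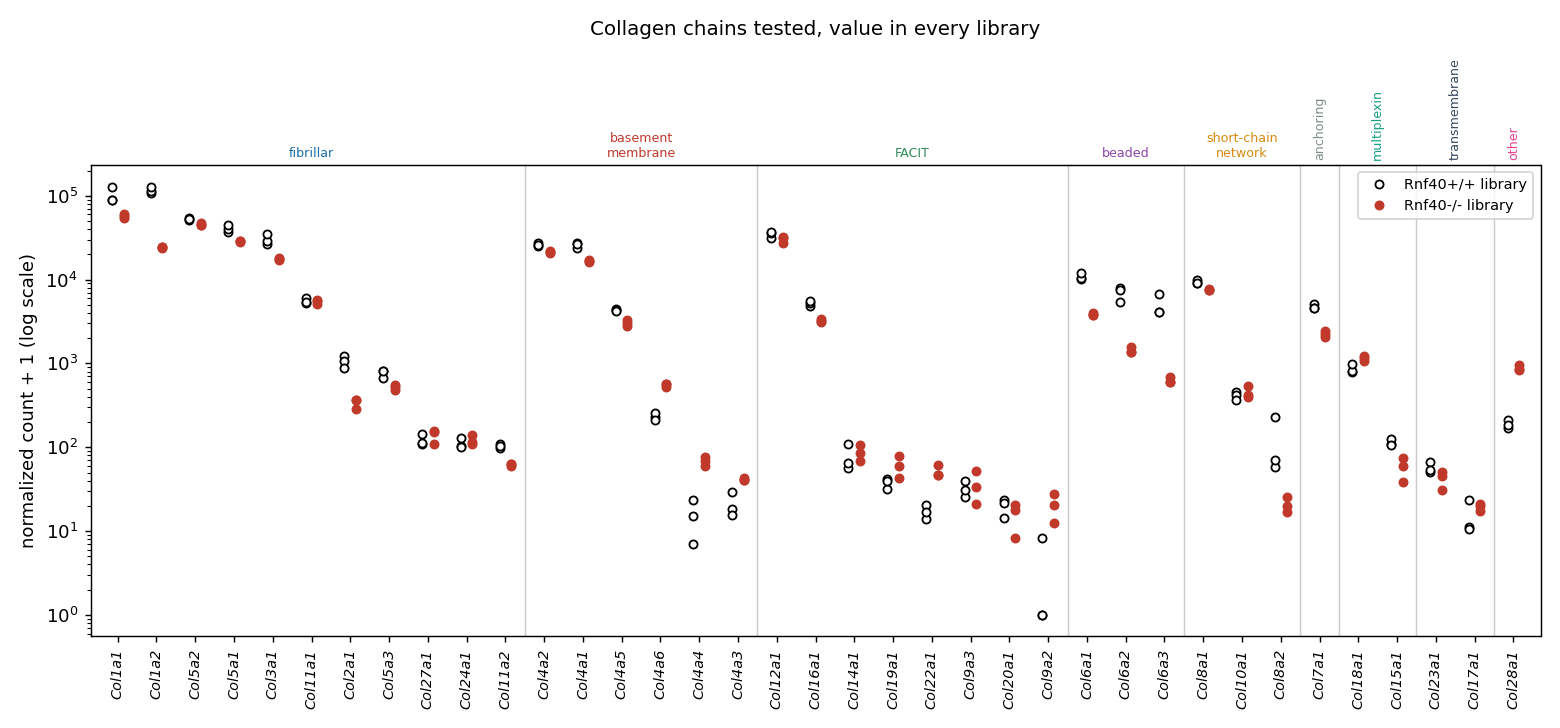
Normalized count + 1 (log axis) of the 37 tested collagen chains in each of the 3 Rnf40+/+ libraries (open circles) and the 3 Rnf40-/- libraries (filled circles), ordered by class and level. The separation is wide for Col1a2, for the 3 collagen VI chains and for Col28a1, and the libraries of both groups intermingle for Col11a1, Col24a1 and Col10a1.

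**Figure D2:**
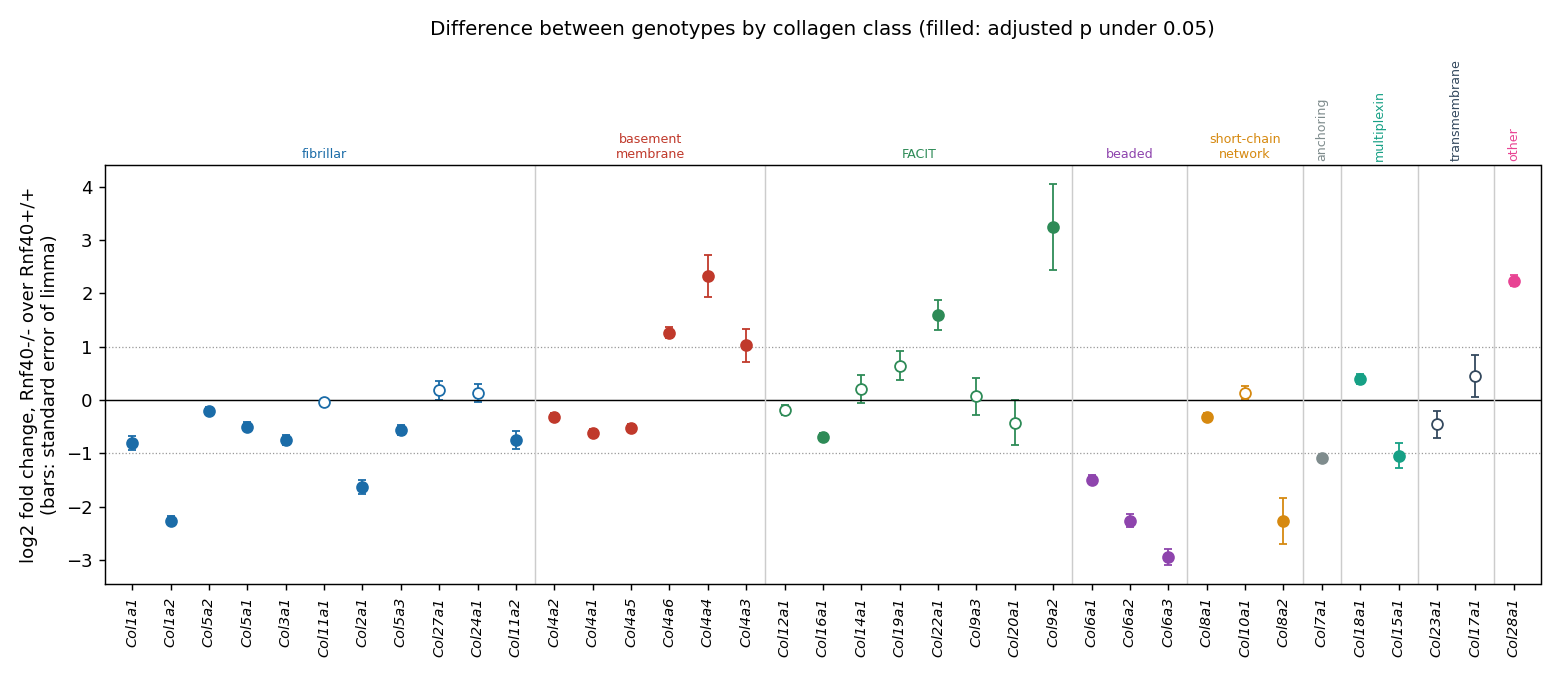
Log2 fold change of each tested chain, Rnf40-/- over Rnf40+/+, with the standard error of limma as bars; filled points passed an adjusted p of 0.05, and dotted lines mark a change of 1. Fibrillar and beaded chains lie at or below 0 except for Col27a1 and Col24a1, which did not pass, while type IV chains lie on both sides, from -0.62 to 2.32.

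The fibrillar chains made up most of the difference. Of the 11 chains, all tested, 8 fell, 0 rose and 3 did not pass, with a median log2 fold change of -0.56. Of all genes tested, 24.1% fell and 23.3% rose. Their share of the reads on genes was 1.67% ± 0.183 in Rnf40+/+ and 0.943% ± 0.0102 in Rnf40-/- libraries (SD, n = 3, exact permutation p = 0.1). In all 8 the Rnf40-/- libraries lay below all Rnf40+/+ libraries, which 28.7% of all genes tested did.

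Collagen I, the collagen of skin, tendon and bone, is built from Col1a1 (ENSMUSG00000001506, mm9 chr11:94797538-94814356, plus strand) and Col1a2 (ENSMUSG00000029661, mm9 chr6:4454814-4491543, plus strand). Col1a2 had 107178, 113121 and 128919 normalized counts in Rnf40+/+ libraries and 24175, 23758 and 24565 in Rnf40-/- libraries. Its level in Rnf40-/- MEFs was 20.8% of that in Rnf40+/+ MEFs, with a wide gap between the groups, and Col1a2 fell by 2.26 on the log2 scale (SE 0.09, limma adjusted p = 7.63e-09). Col1a1 had 89513, 88609 and 127598 normalized counts against 57503, 54886 and 60344. Rnf40+/+ replicate 3 stood above the other two of its group, and all 3 Rnf40-/- libraries were lower than every Rnf40+/+ library. Col1a1 fell by 0.80 (SE 0.13, limma adjusted p = 3.41e-04), less than its partner.

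The ratio of both chains within a library, which no size factor affects, moved accordingly. Log2 of Col1a1 over Col1a2 was -0.26, -0.35 and -0.01 in Rnf40+/+ libraries and 1.25, 1.21 and 1.30 in Rnf40-/- libraries. The difference was 1.46 and the groups did not overlap (exact two-sided permutation p = 0.1, the smallest possible). Per kilobase of transcript, with the transcript of the longest coding sequence as the length, the ratio of Col1a1 to Col1a2 was 0.780 in Rnf40+/+ and 2.15 in Rnf40-/- MEFs. With the mean length of all annotated coding transcripts it was 0.654 and 1.80. Collagen I itself is usually a heterotrimer with more Col1a1 than Col1a2 chains.

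Col1a2 is shown at the sequence level because it was the abundant chain with the largest fall. The stretch below comes from the middle of its helical region (transcript ENSMUST00000031668, NCBIM37 with GENCODE annotation), and the capitals mark the glycine codons, GGN, that open each triplet of the repeat.
Col1a2, codons 604 to 623: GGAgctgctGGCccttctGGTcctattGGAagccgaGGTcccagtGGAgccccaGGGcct
The longest uninterrupted run of such triplets in Col1a2 was 339, and 77.1% of its codons lay in runs of at least 5 triplets. Among the fibrillar chains the longest run had between 216 and 344 triplets, more than in any other class here.

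The 120 bases upstream of the start of Col1a2 are shown for the abundant chain that fell most (RefSeq, GRCm38.p6, 5′ to 3′), with the capitals marking a match to CCAAT 109 bases upstream of the start.
Col1a2, chr6:4505498-4505617, plus strand: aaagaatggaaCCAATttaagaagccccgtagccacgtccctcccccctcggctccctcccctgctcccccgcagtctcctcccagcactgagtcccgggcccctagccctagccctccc
Promoter windows were found in RefSeq for 34 of the 42 chains, and Col1a1, Col2a1, Col5a2, Col4a3, Col12a1, Col14a1, Col22a1 and Col9a3 had no entry. On either strand, CCAAT was in 5 of the 34 windows of 120 bases (Col1a2, Col4a2, Col11a1, Col16a1 and Col17a1) and in 21.3% of all 32851 windows. TATAAA was in 3 of 34 (Col3a1, Col10a1 and Col17a1) and in 6.34% of all windows. GGGCGG was in 16 of 34 and in 26.5% of all windows. For each chain the window of the start farthest upstream was taken. The 32851 windows were not reduced in this way, so these sets are unlike. None of the 3 motifs contains another, and these matches are a description of the letters alone.

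Collagen III, the thin-fibril collagen of soft tissue, is a homotrimer of Col3a1 (ENSMUSG00000026043, mm9 chr1:45368383-45406551, plus strand). Col3a1 had 26357, 28824 and 34545 normalized counts in Rnf40+/+ and 17504, 18284 and 17104 in Rnf40-/- libraries. The Rnf40-/- libraries lay close together and below the other group, and Col3a1 fell by 0.75 (SE 0.09, limma adjusted p = 4.64e-05). Log2 of Col3a1 over Col1a1 was -1.76 ± 0.13 in Rnf40+/+ and -1.71 ± 0.12 in Rnf40-/- libraries (SD, n = 3, exact permutation p = 0.7). These groups overlapped, and the sign of the difference depended on which library was left out.

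Collagen V starts fibrils and sets their diameter. Col5a1 (ENSMUSG00000026837, mm9 chr2:27741945-27895034, plus strand) had 36612, 39842 and 44718 normalized counts against 27877, 29118 and 28536. All Rnf40-/- libraries were below all Rnf40+/+ libraries, and Col5a1 fell by 0.50 (SE 0.08, limma adjusted p = 4.73e-04). Col5a2 (ENSMUSG00000026042, mm9 chr1:45431166-45560127, minus strand) had 51092, 54156 and 52956 against 44972, 47576 and 45163. Its groups also did not overlap, but Col5a2 fell by only 0.20 (SE 0.08, limma adjusted p = 0.0475), and the call was lost without any single library. The adjusted p of Col5a2 was then between 0.0501 and 0.193. Log2 of Col5a1 over Col5a2 went from -0.39 ± 0.13 to -0.69 ± 0.02 (SD, n = 3), a difference of -0.30 without overlap (exact permutation p = 0.1). Col3a1 and Col5a2 are neighbours on chromosome 1 with their ends 24615 bases apart, and log2 of Col3a1 over Col5a2 differed by -0.55 between genotypes (exact permutation p = 0.1).

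Among the fibrillar chains of cartilage, Col2a1 (ENSMUSG00000022483, mm9 chr15:97806033-97835155, minus strand) had 1213, 1067 and 894 normalized counts in Rnf40+/+ and 283, 368 and 369 in Rnf40-/- libraries. Rnf40-/- MEFs held 32.2% of the Rnf40+/+ level, and Col2a1 fell by 1.63 (SE 0.13, limma adjusted p = 1.23e-06). Its co-polymer Col11a1 ranged from 5331 to 6015 in Rnf40+/+ and from 5077 to 5649 in Rnf40-/- libraries, overlapped and did not pass (log2 fold change -0.04, SE 0.07). Of the less abundant fibrillar chains, Col5a3 fell by 0.56 and Col11a2 fell by 0.75, while Col27a1 (0.18) and Col24a1 (0.14) did not pass. Chondrocyte markers other than collagens went both ways. Of the 4 tested, Hapln1 (2.27 on the log2 scale) and Sox6 (1.10) rose, and Sox9, the factor that drives cartilage genes, fell by 0.85. Hapln1 had only 3.19 to 9.18 normalized counts in Rnf40+/+ libraries. It passed the read filter through the Rnf40-/- libraries alone, so a fall of Hapln1 could hardly be called. Among all genes tested, 23.3% rose and 24.1% fell. The summed level of the chondrocyte list was 387 to 530 in Rnf40+/+ and 322 to 356 normalized counts in Rnf40-/- libraries, with Lect1 at 0 in every library and Acan at a mean of 7.42 and 4.63. Their part in the changes of Col2a1 was not tested.

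The beaded chains of collagen VI, which links cells to the surrounding matrix, had the lowest median log2 fold change of any class (-2.26). All 3 tested chains fell, beside 24.1% of all genes tested, and each differed by more than 1 on the log2 scale. Col6a1 (ENSMUSG00000001119, mm9 chr10:76171537-76188913, minus strand) had 10077, 10488 and 12135 normalized counts against 3800, 3770 and 4030. The groups were far apart, and Col6a1 fell by 1.49 (SE 0.08, limma adjusted p = 4.95e-08). Col6a2 (ENSMUSG00000020241, mm9 chr10:76058507-76086375, minus strand) had 8019, 5402 and 7474 against 1356, 1386 and 1560. Col6a2 fell by 2.26 (SE 0.12, limma adjusted p = 7.15e-08), again without overlap.

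Col6a3 (ENSMUSG00000048126, mm9 chr1:92663435-92740529, minus strand), the longest of the 3 chains, had 6738, 4109 and 4094 normalized counts in Rnf40+/+ and 690, 606 and 592 in Rnf40-/- libraries. Rnf40+/+ replicate 1 was higher than the other two, and every Rnf40-/- library was far below them. Its level in Rnf40-/- MEFs was 12.6% of that in Rnf40+/+ MEFs, and Col6a3 fell by 2.94 (SE 0.16, limma adjusted p = 6.56e-08). Without Rnf40+/+ replicate 1 it fell by 2.71. The share of reads on the beaded chains was 0.110% ± 0.0140 in Rnf40+/+ and 0.0311% ± 8.38e-04 in Rnf40-/- libraries (SD, n = 3, exact permutation p = 0.1).

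The chains of this trimer, which assemble in equal numbers, did not fall in parallel. Log2 of Col6a3 over Col6a1 was -0.58, -1.35 and -1.57 in Rnf40+/+ and -2.46, -2.63 and -2.76 in Rnf40-/- libraries, a difference of -1.45 without overlap (exact permutation p = 0.1). Without Rnf40+/+ replicate 1 this difference was -1.16. Log2 of Col6a1 over Col6a2 was 0.66 ± 0.32 in Rnf40+/+ and 1.43 ± 0.06 in Rnf40-/- libraries (SD, n = 3, exact permutation p = 0.1). Col6a1 was thus the least and Col6a3 the most reduced of the chains. Col6a1 and Col6a2 lie on the same strand of chromosome 10 with 85161 bases between the genes, whereas Col6a3 is on chromosome 1. The other beaded chains were barely detected: Col6a4 had 0.80 to 8.36 normalized counts in Rnf40+/+ and 9.39 to 14.2 in Rnf40-/- libraries, Col6a6 had 3.58 to 10.4 and 0 to 6.61, and neither had the reads to be tested. Col6a5 was not analysed here.

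A stretch of the helical region of Col6a3 (transcript ENSMUST00000056925, NCBIM37) is shown for the chain with the largest fall, with the glycine codons of the repeat in capitals.
Col6a3, codons 1624 to 1643: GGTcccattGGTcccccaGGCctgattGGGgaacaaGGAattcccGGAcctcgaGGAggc
The repeat made up only 12.5% of the codons of Col6a3, with a longest run of 45 triplets, since most of this chain is not helical. The upstream windows of the 3 chains (RefSeq, GRCm38.p6, 120 bases before the start, 5′ to 3′) are set side by side because these chains all fell. None of the 3 motifs above was in them on either strand, so no base is in capitals.
Col6a1, chr10:76726045-76726164, minus strand: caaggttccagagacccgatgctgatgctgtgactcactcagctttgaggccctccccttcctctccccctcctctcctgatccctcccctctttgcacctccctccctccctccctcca
Col6a2, chr10:76623631-76623750, minus strand: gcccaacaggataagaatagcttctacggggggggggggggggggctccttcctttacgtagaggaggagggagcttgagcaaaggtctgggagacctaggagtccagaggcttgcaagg
Col6a3, chr1:90843972-90844091, minus strand: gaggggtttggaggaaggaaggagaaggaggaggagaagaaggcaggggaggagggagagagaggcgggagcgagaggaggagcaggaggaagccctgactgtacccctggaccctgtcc

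Type IV collagen, the network of basement membranes, divided into chains that fell and chains that rose. Of the 6 chains, all tested, 3 fell and 3 rose, beside 24.1% and 23.3% of all genes tested. Their median log2 fold change of 0.36 thus describes neither set. The share of reads on the class was 0.273% ± 0.00747 in Rnf40+/+ and 0.218% ± 0.00425 in Rnf40-/- libraries (SD, n = 3, exact permutation p = 0.1). The chains that fell were the abundant ones. Col4a1 (ENSMUSG00000031502, mm9 chr8:11198423-11312826, minus strand), part of the type IV trimer of nearly all basement membranes, had 23900, 27020 and 26838 normalized counts against 16428, 16846 and 17337. The groups were well apart, and Col4a1 fell by 0.62 (SE 0.07, limma adjusted p = 2.95e-05). Its partner Col4a2 (ENSMUSG00000031503, mm9 chr8:11312805-11449287, plus strand) had 25293, 27615 and 26169 against 20697, 21146 and 21679, and fell by 0.32 (SE 0.07, limma adjusted p = 0.00262). Col4a5, a chain of kidney and skin basement membranes, fell by 0.53, from 4353 ± 167 to 3022 ± 241 normalized counts (SD, n = 3).

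The chains that rose were at lower levels than those that fell. Col4a6 (ENSMUSG00000031273, mm9 chrX:137599946-137908619, minus strand), which pairs with Col4a5 in smooth muscle basement membranes, had 228, 256 and 208 normalized counts in Rnf40+/+ and 572, 563 and 529 in Rnf40-/- libraries. All Rnf40-/- libraries were above all Rnf40+/+ libraries, which 27.8% of all genes tested were, and Col4a6 rose by 1.26 (SE 0.10, limma adjusted p = 1.78e-06). Col4a4 (ENSMUSG00000067158, mm9 chr1:82447298-82583424, minus strand), a chain of the glomerular basement membrane, had 5.97, 14.3 and 22.4 normalized counts against 68.3, 58.4 and 74.6. These values rest on 5, 14 and 28 reads against 67, 56 and 79. The Rnf40+/+ libraries varied widely at these few reads, yet all lay below every Rnf40-/- library. The fitted rise of Col4a4 was 2.32 (SE 0.39, limma adjusted p = 4.72e-04). Col4a4 passed the read filter only through the Rnf40-/- libraries, so a fall could hardly be called. Col4a3 (ENSMUSG00000079465, mm9 chr1:82583496-82718634, plus strand), its trimer partner, had 28.7, 17.3 and 14.4 against 39.8, 41.7 and 39.7. Col4a3 rose by 1.03 (SE 0.31, limma adjusted p = 0.0156), and the call was lost without Rnf40+/+ replicate 2 (adjusted p = 0.0504) or without Rnf40-/- replicate 2 (adjusted p = 0.0542).

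The type IV genes lie head to head in pairs, each pair transcribed outward from a shared region. The annotated starts of Col4a1 and Col4a2 were 21 bases apart on chromosome 8, those of Col4a3 and Col4a4 were 72 apart on chromosome 1, and those of Col4a5 and Col4a6 were 1309 apart on chromosome X (mm9). The first pair fell together and the pair on chromosome 1 rose together, with the limit of the read filter for Col4a4. The X-linked pair moved in opposite directions. Log2 of Col4a5 over Col4a6 was 4.30, 4.09 and 4.32 in Rnf40+/+ and 2.39, 2.54 and 2.40 in Rnf40-/- libraries, a difference of -1.79 without overlap (exact permutation p = 0.1). Log2 of Col4a1 over Col4a2 differed by -0.30 (exact permutation p = 0.1), from -0.03 ± 0.06 to -0.33 ± 0.01 (SD, n = 3). The annotated Col4a1 and Col4a2 genes overlap at their starts. The library kit kept the strand, but whether the counting used it is not given in the sources used here.

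A stretch of Col4a1 (transcript ENSMUST00000033898, NCBIM37) was picked at a break in its repeat. Those of Col1a2 and Col6a3 were taken from inside their longest runs, so the stretches cannot be compared for breaks. Glycine codons of the repeat are in capitals, and 2 codons without a place in the repeat break it.
Col4a1, codons 215 to 234: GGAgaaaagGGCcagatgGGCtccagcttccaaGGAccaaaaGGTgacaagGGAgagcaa
Such breaks divided the repeat of Col4a1 into 22 runs of at least 5 triplets, the longest of 40 triplets, although 79.2% of its codons lay in these runs. Across the type IV chains the longest run had 39 to 66 triplets, which overlaps the 42 to 87 of the beaded chains.

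Endothelial markers belong to cells that line their own basement membrane. Those that passed moved in the same direction as Col4a3, Col4a4 and Col4a6. Col4a1 and Col4a2, the chains of nearly all basement membranes, and Col4a5 moved the other way. Of the 5 endothelial markers tested, 3 rose (Cdh5 by 3.26, Pecam1 by 2.58 and Kdr by 1.56 on the log2 scale) and 0 fell. Of all genes tested, 23.3% rose and 24.1% fell. Cdh5 and Pecam1 were at few reads in Rnf40+/+ MEFs, with means of 2.76 and 3.75 normalized counts. They passed the read filter through the Rnf40-/- libraries alone, so a fall could hardly be called. Their summed level was 66.3 to 152 normalized counts in Rnf40+/+ and 201 to 303 in Rnf40-/- libraries, with Cldn5 at 0 in every Rnf40-/- library and at most 0.80 in an Rnf40+/+ library. Of the epithelial markers, 1 of 4 tested rose and 0 fell (sums of 40.8 to 113 and 59.5 to 85.7). The marker that rose, Cldn4, had 2.39 to 8.78 normalized counts in Rnf40+/+ libraries and has the same limit of the read filter. The part of the endothelial and epithelial markers in the rise of Col4a3, Col4a4 and Col4a6 was not tested.

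**Figure D3:**
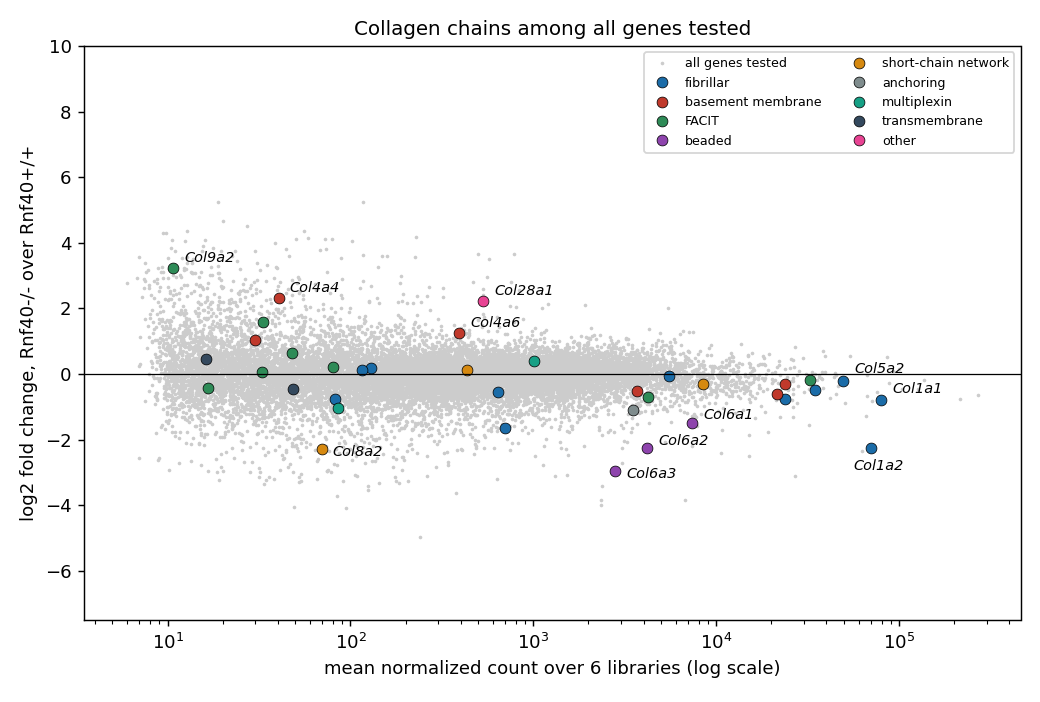
Log2 fold change, Rnf40-/- over Rnf40+/+, against the mean normalized count of the 6 libraries (log axis) for the 16378 genes tested (grey) and the 37 tested collagen chains (coloured by class). Col1a2 and the 3 collagen VI chains lie at least 1.49 below 0, Col28a1 lies 2.24 above it, and the chains that rose had at most 1217 normalized counts in a library.

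FACIT chains did not share a direction. Of 9 chains 8 were tested, of which 2 rose, 1 fell and 5 did not pass, with a median log2 fold change of 0.14. Of all genes tested, 23.3% rose and 24.1% fell, so the rises of this class were close to that share. Their share of the reads on genes overlapped between the groups, at 0.192% ± 0.0134 in Rnf40+/+ and 0.177% ± 0.0151 in Rnf40-/- libraries (SD, n = 3, exact permutation p = 0.3). Col12a1 (ENSMUSG00000032332, mm9 chr9:79446798-79566638, minus strand), the dominant FACIT chain and a component of fibril surfaces in tendon and skin, had 31103, 35611 and 37158 normalized counts against 31237, 32344 and 27312. The groups overlapped, and the difference of -0.19 did not pass (SE 0.09, limma adjusted p = 0.107), although it did without Rnf40+/+ replicate 1 (log2 fold change -0.27, adjusted p = 0.0336). Col16a1, found on fibrils and near basement membranes, fell by 0.69, from 5224 ± 339 to 3234 ± 153 normalized counts (SD, n = 3).

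Both FACIT chains that rose were at low levels. Col22a1 (ENSMUSG00000079022, mm9 chr15:71626225-71864657, minus strand), a chain of tissue junctions such as that of muscle and tendon, had 13.1, 19.4 and 16 normalized counts against 60.2, 45.9 and 45.3. The Rnf40-/- libraries were clearly above the others, and Col22a1 rose by 1.59 (SE 0.28, limma adjusted p = 6.44e-04). Col9a2 (ENSMUSG00000028626, mm9 chr4:120711990-120727927, plus strand), a chain of cartilage collagen IX, was at 0, 0 and 7.19 in Rnf40+/+ and at 19.4, 11.5 and 26.4 in Rnf40-/- libraries. These values rest on 0, 0 and 9 reads against 19, 11 and 28. Col9a2 thus passed the read filter through the Rnf40-/- libraries alone, and the direction of its call is in part set by that filter. The fitted rise of Col9a2 was 3.24 (SE 0.80, limma adjusted p = 0.00559) but its size depended on the constant added before taking logs, from 1.25 with 10 added to 5.44 with 0.1 added. Col9a3 had 24.5 to 38.2 against 19.8 to 51.0 and did not pass, as did Col14a1, Col19a1 and Col20a1, whose log2 fold changes were between -0.42 and 0.64. Col9a1 had at most 4 reads in a library and was not tested, and Col21a1 was not analysed here.

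The remaining classes have 1 to 4 chains each. Col7a1 (ENSMUSG00000025650, mm9 chr9:108855631-108886920, plus strand), which forms the anchoring fibrils under the epidermis, had 5141, 4560 and 4622 normalized counts against 2435, 2269 and 2077. Every Rnf40-/- library held fewer than any Rnf40+/+ library, and Col7a1 fell by 1.08 (SE 0.08, limma adjusted p = 5.02e-07). Col8a2 (ENSMUSG00000056174, mm9 chr4:125964037-125991574, plus strand), a short-chain collagen of the cornea and vessel wall, had 57.3, 70.4 and 230 against 24.5, 18.8 and 16.1. Rnf40+/+ replicate 3 stood far above the other two, and Col8a2 fell by 2.27 (SE 0.43, limma adjusted p = 0.00100). Without that library it fell by 1.66 (limma adjusted p = 6.50e-04). Its partner Col8a1 fell by only 0.31, from 9386 ± 480 to 7569 ± 66.2 normalized counts (SD, n = 3), so that log2 of Col8a1 over Col8a2 differed by 1.96 (exact permutation p = 0.1), or by 1.33 without Rnf40+/+ replicate 3. Col10a1, the collagen of hypertrophic cartilage, was at 361 to 450 in Rnf40+/+ and 398 to 536 normalized counts in Rnf40-/- libraries and did not pass.

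The multiplexins, which carry sugar chains and release fragments that act on vessels, diverged. Col15a1 (ENSMUSG00000028339, mm9 chr4:47221033-47326039, plus strand) had 110, 125 and 105 normalized counts against 58.1, 37.6 and 73.6, and fell by 1.04 without overlap (SE 0.24, limma adjusted p = 0.00322). Col18a1, the source of endostatin, rose by 0.40 (SE 0.10, limma adjusted p = 0.00488), from 869 ± 112 to 1141 ± 80.5 normalized counts (SD, n = 3). In the annotation Col18a1 overlaps Slc19a1. The transmembrane chains Col23a1 (log2 fold change -0.46) and Col17a1 (0.45) did not pass, and Col25a1 had 3.99 to 9.55 against 3.78 to 7.14 and was not tested. Col13a1 was also not tested, and its values of 284, 2.04 and 0 in Rnf40+/+ and 3.06, 7.31 and 3.78 in Rnf40-/- libraries show 1 library, Rnf40+/+ replicate 1, with 238 reads while the others had at most 7.

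Col28a1 (ENSMUSG00000068794, mm9 chr6:7947808-8142617, minus strand), a collagen known from the sheaths of peripheral nerve, had 208, 169 and 182 normalized counts in Rnf40+/+ and 846, 962 and 834 in Rnf40-/- libraries. The groups were far apart, the level in Rnf40-/- MEFs was 473% of that in Rnf40+/+ MEFs, and Col28a1 rose by 2.24 (SE 0.11, limma adjusted p = 3.09e-08). Of the neural markers, 0 of 4 tested rose and 1 fell, beside 23.3% and 24.1% of all genes tested. Their sums were 3300 to 4732 in Rnf40+/+ and 2311 to 2670 in Rnf40-/- libraries, with Olig2 at 0 in every library. Col26a1 is listed under the older symbol Emid2, outside the rule, with at most 3 reads in a library. The upstream window of Col28a1 (RefSeq, GRCm38.p6) is given for the rising chain in the same way as for those that fell, and it too held no match to the 3 motifs.
Col28a1, chr6:8192618-8192737, minus strand: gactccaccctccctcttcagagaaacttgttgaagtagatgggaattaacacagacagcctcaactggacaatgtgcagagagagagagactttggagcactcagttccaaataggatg

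The make-up of collagen mRNA differed between the genotypes. As a share of all collagen normalized counts per kilobase of transcript, Col1a2 made up 27.7% ± 0.253 in Rnf40+/+ and 10.8% ± 0.196 in Rnf40-/- libraries (SD, n = 3), and went from rank 1 to rank 3 among the chains. Col1a1 kept a like share, 21.7% ± 2.60 against 23.1% ± 1.10, with overlapping libraries, and was the leading chain in Rnf40-/- MEFs. Col5a2, whose own level differed little, made up 10.2% ± 0.887 against 16.5% ± 0.466. The shares of Col6a1 (3.38% ± 0.0122 against 2.25% ± 0.0766), Col6a2 (2.25% ± 0.492 against 0.865% ± 0.0623) and Col6a3 (0.736% ± 0.278 against 0.171% ± 0.0158) were lower. Shares sum to 100% in each library, so the share of a chain rises where others fall.

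**Figure D4:**
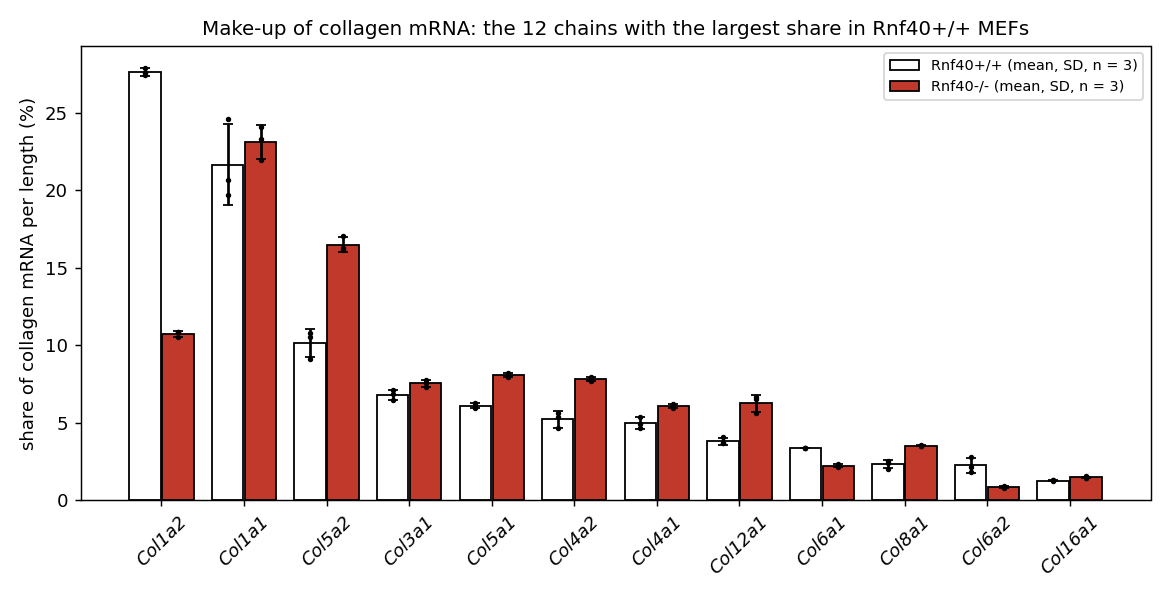
Share of collagen mRNA per kilobase of transcript (percent) for the 12 chains with the largest share in Rnf40+/+ MEFs; bars are means of 3 libraries with SD, points are libraries, and the axis starts at 0. Col1a2 drops from 27.7% to 10.8% while Col5a2 goes from 10.2% to 16.5%.

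**Figure D5:**
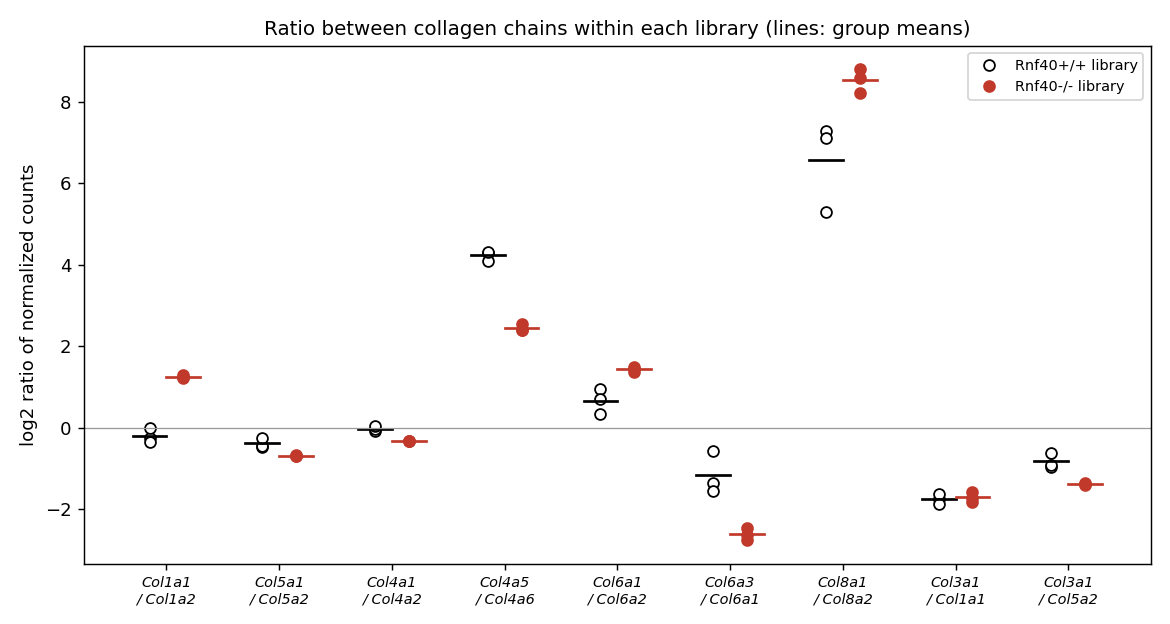
Log2 ratio of normalized counts between chains of a pair in each Rnf40+/+ library (open circles) and Rnf40-/- library (filled circles), with group means as lines. The groups do not overlap for any pair but Col3a1 over Col1a1, and the differences run from -1.79 for Col4a5 over Col4a6 to 1.96 for Col8a1 over Col8a2.

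Genes that act on collagen were followed as 4 lists, to be read against the 24.1% of all genes tested that fell and the 23.3% that rose. Of the 23 tested genes of collagen synthesis, which modify, fold and export the chains in the endoplasmic reticulum, 11 fell, 4 rose and 8 did not pass (median log2 fold change -0.24). Serpinh1, the collagen chaperone HSP47, had 21839, 24100 and 30747 normalized counts in Rnf40+/+ and 11166, 11274 and 11648 in Rnf40-/- libraries. The groups did not overlap, and Serpinh1 fell by 1.15 (SE 0.11, limma adjusted p = 3.93e-06). Sec24d, a coat protein of the vesicles that export procollagen, fell by 0.83. Leprel1, a prolyl 3-hydroxylase, rose by 1.24, and P4hb, the shared subunit of prolyl 4-hydroxylases, rose by 0.50.

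Of the 18 tested genes of collagen maturation, which trim, cross-link and space the fibrils, 10 fell, 3 rose and 5 did not pass (median -0.65), against 24.1% and 23.3% of all genes tested. Loxl3, a lysyl oxidase that cross-links collagen, had 4687, 5087 and 5251 normalized counts against 1214, 1224 and 1236. The libraries of each group lay close together and far from the other group, and Loxl3 fell by 2.03 (SE 0.06, limma adjusted p = 2.41e-09). Dpt, which promotes fibril formation, fell by 1.70. Tnxb, a matrix protein that binds fibrils, rose by 1.59, and Pcolce2, which enhances procollagen cleavage, rose by 0.66.

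Of the 9 tested collagen receptors, 3 fell, 2 rose and 4 did not pass (median 0.09), close to the 24.1% and 23.3% of all genes tested. Itga11, the fibroblast integrin subunit for fibrillar collagen, had 5796, 6317 and 6333 normalized counts against 2800, 2659 and 2719. It fell by 1.17 without overlap (SE 0.06, limma adjusted p = 7.03e-08). Itga1 fell by 0.45, and the collagen-binding kinases Ddr1 and Ddr2 rose by 0.30 and 0.24.

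Of the 8 tested genes of collagen breakdown, 7 fell and 1 rose (median -0.51), against 24.1% and 23.3% of all genes tested. Mmp14, the membrane-bound collagenase of fibroblasts, had 11412, 10224 and 11609 normalized counts against 4422, 4385 and 4490. Its groups did not overlap, and Mmp14 fell by 1.32 (SE 0.07, limma adjusted p = 4.66e-08). Mmp9, a gelatinase, fell by 2.52 (SE 0.48) at 16.3 mean normalized counts in Rnf40-/- MEFs, and Mmp13, a collagenase, rose by 1.47. The macrophage markers, of cells that also make Mmp9, held 4 genes that fell and 2 that rose of 10 tested, with sums of 5860 to 9910 normalized counts in Rnf40+/+ and 3709 to 4106 in Rnf40-/- libraries. Their part in the fall of Mmp9 was not tested.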

How the data were processed

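RNA-seq was analysed from 1 deposited table with 3 Rnf40+/+ and 3 Rnf40-/- libraries. Each deposited signal value equals reads on that gene over a library size factor. The authors mapped directional libraries to the mouse transcriptome (mm9) and normalized with DESeq, and the submitters' processing notes list Bowtie2 2.1.0 and DESeq 1.14.0. The counting tool is not given in the sources used here. The reads were recovered from the smallest step of each library, and 100% of the positive values were whole within 0.01 reads, with size factors of 0.837 to 1.25. A floor of 3 reads corresponds to 2.40 to 3.58 normalized counts, counting error only. Genes were filtered with filterByExpr of edgeR 4.0.16 on these reads, by genotype, which left 16378 of 29955, and 7410 rows had no read. This filter can keep a gene that has enough reads in the libraries of only 1 genotype. Such a gene can hardly be called lower in that genotype. Genotypes were compared by limma 3.58.1 (R 4.3.3, eBayes with a trend) after adding 1 and taking log2, without covariates, and p-values were adjusted by Benjamini-Hochberg over all genes tested. Single values were compared with exact permutation tests (scipy 1.17.1). The fit was tested on simulated data of 16180 genes, where limma recovered 198 of 200 changed genes with 9 false calls. The simulation gave every gene the same dispersion and changed only genes above a set mean level. It thus does not cover genes with few reads, uneven libraries or the large part of genes called here.

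Values in every library are given for the chains called with a change of at least 1 on the log2 scale, the 8 most abundant chains and Rnf40. Of each list of genes acting on collagen, the 2 largest called rises and falls are named. Markers named singly, other chains whose values in every library are given, and the genes of these lists shown in every library were chosen after their values were seen. Lists covered synthesis, maturation, receptors and breakdown of collagen and markers of fibroblasts, macrophages, endothelial, epithelial, skeletal muscle, chondrocyte, osteoblast, neural and adipocyte cells. Collagen chains as members, their classes and the lists were chosen with earlier results of these data known, although the symbol rule itself uses no value. Of the 42 chains, all were found in the mm9 annotation and 20 overlap another annotated gene, so that reads may be shared. Alternatives were other size factors, edgeR's quasi-likelihood test on the recovered reads, DESeq2 1.42.0, other filters and pseudocounts, a replicate block, and leaving out each library. The collagen share without Col1a2 was added after seeing the data. On the recovered reads the count test of edgeR called 3857 genes higher and 3940 lower.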

Additional observations from a re-analysis of the deposited data

How the results depend on the processing

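Of 27 chains followed through the alternatives, 25 were tested in each, 22 of them with the same call, and 0 reversed; the call changed for Col5a2, Col4a3 and Col12a1. Col9a2 and Col4a4 kept their call where tested, but neither was tested with at least 10 reads in every library (5 chains higher), nor Col9a2 with a mean above 15 (6 higher). Without 1 library in turn, 18 to 19 chains were called lower and 6 to 8 higher. The basement membrane median was 0.40 with upper-quartile size factors, 0.23 with a pseudocount of 10, -0.32 where at least 10 reads were required in every library, and 0.25 to 0.46 without 1 library. The beaded median was -1.49 with no gene filter and -2.32 to -1.81 without 1 library, and that of the FACIT chains 0.018 to 0.39. Receptors called higher numbered 1 to 3 without 1 library. The difference in log2 of Col3a1 over Col1a1 was -0.015 to 0.12 without 1 library, with the sign reversed without Rnf40+/+ replicate 3 and without Rnf40-/- replicate 2. The labels do not say whether replicate numbers pair the samples. Deviations of same-numbered libraries correlated by 0.0118 to 0.0212, within the range of -0.0531 to 0.0371 of libraries with unlike numbers. With so few libraries this cannot settle the pairing. Over all genes the replicate block called 4021 higher and 4196 lower, against 3809 and 3955 in the main fit. With the replicate block 18 chains were lower and 7 higher; Col5a2 lost its call (adjusted p = 0.103). Chains with under 10 reads in every library, such as Col9a1, could not be compared at this depth.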

Other observations

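Markers of other lineages, not placed beside a chain above, were at low levels. Their counts are to be read against the 24.1% of all genes tested that fell and the 23.3% that rose. Of 2 skeletal muscle markers tested, 1 fell (sums of 343 to 862 normalized counts in Rnf40+/+ and 265 to 466 in Rnf40-/- libraries), with Myod1 at 0 in every library. Of 3 osteoblast markers tested, 2 fell and 0 rose (sums of 747 to 849 and 648 to 701). Of 2 adipocyte markers tested, 1 rose and 0 fell (sums of 102 to 163 and 202 to 216), with Adipoq at 0 in every library. The part of these markers in the collagen values was not tested.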
